A study of Mus musculus with 6 samples.

Results

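The genes described here drive the cell division cycle: the proteins that copy DNA, the cyclins and kinases that admit a cell to S phase, and the machinery of mitosis. They were chosen as a named list of 55 cell cycle and DNA replication genes, each read from its brightest array probe set with a single gene symbol and with no filter on dim signals. Of the 55, 53 were measured, among 12393 genes in all. Chaf1a and Ccnb1 had no probe set with that single symbol and were not analysed here. The 53 genes fall into 30 replication genes, 14 genes of G2 and mitosis and 9 genes of G1 and S-phase entry.

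RNA came from white adipose tissue of mice aged 8 weeks, on a mixed C57BL6 and 129 background, kept at 4 °C for 4 days. Both groups carried floxed Yy1 alleles as far as the series describes them. The YY1aKO group (3 samples) also carried Cre driven by the Adiponectin promoter, an adipocyte promoter, and the 3 controls did not. YY1 binds DNA through zinc fingers and can turn genes up or down. The labels do not agree on the fat depot: EWAT stands in the sample titles and visceral fat in the tissue field, but subcutaneous fat in the descriptions and in the title of the series, which moreover speaks of a brown fat-specific loss. Each sample was on its own array. No label says that the samples came from separate animals, so the p-values measure the spread between these samples only, and the number of arrays limits the precision.

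As background, a cell preparing to divide loads the ring-shaped MCM helicase onto DNA in G1, and fires it in S phase with Cdc45 and the GINS complex. Replication factor C, a clamp loader, then opens the PCNA clamp and sets it on DNA, where it holds the polymerases, while replication protein A coats the single strands. Release of E2F factors from the retinoblastoma protein by cyclin-dependent kinases turns many of these genes on in late G1, and a later wave of mitotic genes is driven through CCAAT boxes and the CHR element bound by the DREAM and MuvB complexes. Mature adipocytes do not divide, so in fat such transcripts are usually ascribed to progenitors, immune cells and vessel cells. Several replication proteins also act in DNA repair.

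The promoter stretches below show letters that differ in frequency between the replication and the mitotic genes, which the choice of genes did not use. They were read from RefSeq sequence of build GRCm38.p6, which held a window for 43 of the 53 genes and for 9887 of the 12393. Each window runs from 250 bases before the first-listed start to 50 bases after it, 300 bases in all. 4 motifs, chosen after the array values were known, were searched on both strands: an E2F site as TTCCCGC or TTTGGCG, the CCAAT box as CCAAT, the CHR element as TTTGAA, and a YY1 site as AAGATGG. Matches of different motifs can share a base, as do an E2F and a CCAAT match in Prim1. No window was held for Mcm4, Gins1, Rfc2, Pole, Ccna2, Aurkb, Ccne2, Ccnd1, Ccnd2 and Rb1.

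Each sequence below holds the 200 bases before the start, 5′ to 3′ on the gene's strand, and capitals mark every motif match on either strand. Rpa2 and Rrm1 stand for replication genes with E2F letters, of which Rpa2 passed the test with 6 arrays and Rrm1 did not. Asf1b had the largest rise among the 53 genes. Cdc20 and Cdk1 stand for the mitotic genes, of which Cdc20 passed and Cdk1 did not. They lie at chr4:132768160-132768359 (plus strand, Rpa2), chr7:102441495-102441694 (plus strand, Rrm1), chr8:83955494-83955693 (plus strand, Asf1b), chr4:118437344-118437543 (minus strand, Cdc20) and chr10:69352913-69353112 (minus strand, Cdk1).
Rpa2: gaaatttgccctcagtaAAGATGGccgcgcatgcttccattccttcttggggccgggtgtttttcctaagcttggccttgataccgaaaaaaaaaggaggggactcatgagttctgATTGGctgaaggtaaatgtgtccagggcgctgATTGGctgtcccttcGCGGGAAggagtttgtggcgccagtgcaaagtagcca
Rrm1: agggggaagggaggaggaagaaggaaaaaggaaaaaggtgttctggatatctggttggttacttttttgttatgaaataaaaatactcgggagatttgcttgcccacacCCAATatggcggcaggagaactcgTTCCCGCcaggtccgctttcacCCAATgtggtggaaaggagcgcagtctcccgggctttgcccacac
Asf1b: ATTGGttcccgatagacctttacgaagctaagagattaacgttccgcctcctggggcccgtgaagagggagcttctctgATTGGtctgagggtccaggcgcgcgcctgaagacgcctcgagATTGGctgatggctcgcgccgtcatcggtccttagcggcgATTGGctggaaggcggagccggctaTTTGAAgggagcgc
Cdc20: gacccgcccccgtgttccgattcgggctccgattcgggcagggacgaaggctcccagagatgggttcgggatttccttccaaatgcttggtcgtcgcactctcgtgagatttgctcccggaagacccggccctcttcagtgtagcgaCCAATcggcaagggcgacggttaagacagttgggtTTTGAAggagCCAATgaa
Cdk1: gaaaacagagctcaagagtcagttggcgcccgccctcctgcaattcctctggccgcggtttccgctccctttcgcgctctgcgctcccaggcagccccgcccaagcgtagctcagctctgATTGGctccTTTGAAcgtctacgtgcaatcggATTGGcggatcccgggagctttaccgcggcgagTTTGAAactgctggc

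E2F letters were present in 15 of 26 replication windows (57.7%) and in 0 of 12 mitosis windows, against 9.42% of all 9887 windows. CHR letters showed the reverse, with 9 of 12 mitosis windows (75%) and 4 of 26 replication windows (15.4%), against 13% of all. CCAAT letters were common to both sets, in 18 of 26 and 10 of 12 windows, against 38.1% of all. The YY1 letters stood in 4 of the 43 windows (9.3%), those of Mcm5, Mcm10, Rpa2 and Asf1a, against 6.89% of all. Of the 5 G1 windows, 1 (20%), that of Cdk2, held E2F letters, and that of E2f1 had no E2F match. In the stretches above, Rpa2 and Rrm1 carry E2F letters beside CCAAT boxes, while Cdc20 and Cdk1 pair TTTGAA with CCAAT boxes and have no E2F match. Asf1b, a replication gene by role, has CCAAT boxes and TTTGAA and no E2F match. Of the genes that passed with 6 arrays, 8 have a window, and E2F letters stand in 4 of these and CHR letters in 2. Of the genes that rose without control 2, 14 have a window, with E2F letters in 4 (28.6%) and CHR letters in 6 (42.9%). Among all 43 windows of the members, E2F letters stand in 16 (37.2%) and CHR letters in 13 (30.2%). A match is a description of letters and not evidence of binding.

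Yy1 itself read 1785, 1846 and 1596 in the controls against 373, 323 and 315 in YY1aKO (log2 change -2.37 ± 0.11, SE, limma adjusted p = 0.0027), so each array followed its label. Here and below, values are deposited intensities in the order of replicates 1 to 3, and changes are log2 differences, YY1aKO minus control, with their standard error. Array medians ran from 134 to 140.2. Control 2 stood apart, with correlations of 0.912 to 0.945 with the other arrays over 12393 genes, and its summed level of 4 epididymal markers was 68312, against 143 and 804 in controls 1 and 3 and 169 to 175 in YY1aKO. Control 3 carried some of this signal and of sperm and testis transcripts as well (Gpx5 639 and Prm1 509.9, against 39.0 and 91.3 in control 1). The members' calls are therefore given with 6 arrays and without control 2. Adipocyte markers were bright on every array (Adipoq 18586 to 24774 in the control group, 19768 to 21714 in the YY1aKO group). With 6 arrays 0 of 6 were called by limma (0 higher and 1 lower at an unadjusted p under 0.05). Of all genes, 6.85% rose and 3.99% fell in that fit, so 0 calls in so short a list says little. Without control 2, 1 of the 6, Retn, fell (16.7%, against 11.5% of all genes), by -1.67 ± 0.44 (limma adjusted p = 0.040). The other 2 negative changes, and 3 positive ones (Fabp4 0.045, Lipe 0.39 and Pparg 0.22), were not called. The summed adipocyte markers were 95852 and 89040.1 in controls 1 and 3, against 73723 to 79493 in YY1aKO and 61286 in control 2. Retn has a large part in that difference, with 19778 and 18733 in controls 1 and 3 against 3171, 8225 and 8440 in YY1aKO. In tissue RNA, fewer cells of a type and less RNA per cell cannot be told apart.

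With 6 arrays, 9 of the 53 genes rose in YY1aKO (17.0%, against 6.85% of all genes) and 0 fell (against 3.99%), by limma with Benjamini-Hochberg adjustment over 12393 genes at 0.05. The 9 were the clamp loader subunits Rfc1, Rfc3 and Rfc4, the single-strand binding subunits Rpa1 and Rpa2, the histone chaperone Asf1b, the mitotic activator Cdc20, cyclin E2 (Ccne2) and the transcription factor E2f1. At an unadjusted limma p under 0.05, 21 of the 53 were higher and 2, Cdc6 and Ccnd1, were lower. Of all 12393 genes, 2063 were higher and 1425 lower at that cut. These are also the array-wide counts for the unadjusted counts with 6 arrays given for other lists. The median log2 change of the 53 genes was 0.27, against 0.04 over all genes, and 41 of 53 were positive. In 23 genes all 3 YY1aKO arrays lay above all controls (22.4% of all genes did), and in Cdc6 and Ccnd1 they lay below (15.5% of all genes).

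Without control 2, 18 of 53 rose (34.0%, against 14.7% of all genes) and 2 fell (3.77%, against 11.5%). The 9 calls stayed, and Cdc45, Rfc2, Rfc5, Pole, Fen1, Ube2c, Aurka, Mad2l1 and Ccnd2 were added among the rises, with Cdc6 and Ccnd1 as the falls. All YY1aKO arrays lay above both remaining controls in 25 of the 53 genes (30.1% of all genes did) and below them in 4 (25.2% of all genes). The count depends on which arrays are used: of 6 arrays, leaving out control 1 gave 12 rises and the fall of Ccnd1, with the calls of Rpa2 and Cdc20 lost and those of Cdc45, Gins1, Pole, Ube2c and Mki67 gained. Leaving out control 3 left 3 rises (Rfc3, Rfc4 and Asf1b), leaving out YY1aKO 1 left 2 (Rfc4 and Asf1b), and leaving out YY1aKO 2 or YY1aKO 3 left Asf1b alone. In the last 4 of these fits, in which control 2 remained, 10 to 58 of all genes rose. With control 2 and any further array left out, Rfc3, Rfc4, Rfc5, Rpa1, Rpa2, Asf1b, Cdc20, Aurka, Mad2l1, Ccne2 and E2f1 passed each time, and each of the other 7 rises was lost in at least 1 of these fits.

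**Figure D1:**
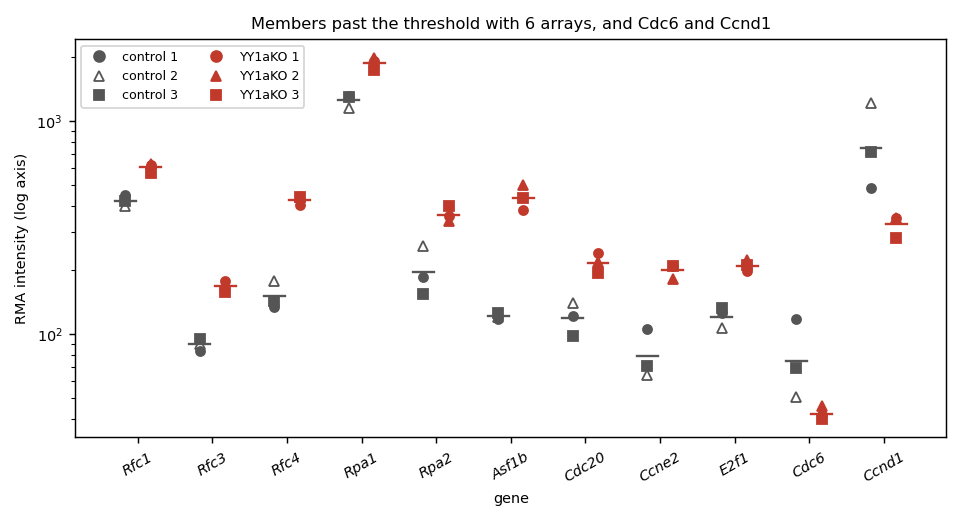
Deposited intensity (log axis) on each array for the 9 genes that rose with 6 arrays and for Cdc6 and Ccnd1, which fell without control 2, with 1 point per array, lines at the geometric mean of each group of 3 and control 2 as an open triangle. In the 9 that rose, every YY1aKO point lies above every control point, and in Cdc6 and Ccnd1 every YY1aKO point lies below.

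The helicase genes did not move as a block. Of 10 measured, 0 passed limma with 6 arrays (3 were higher and 1 lower at an unadjusted p under 0.05). Of all genes, 6.85% rose and 3.99% fell in that fit. Without control 2 Cdc45 rose and Cdc6 fell (10% each, against 14.7% and 11.5% of all genes). The median change was 0.17 with 6 arrays and 0.090 without control 2. Among the helicase subunits themselves, Mcm2 to Mcm7, changes ran from -0.23 (Mcm2) to 0.35 (Mcm3) and none passed in either fit. Mcm4 read 364, 338 and 346 in the controls against 431, 445 and 393 in YY1aKO, with every YY1aKO array above every control (log2 change 0.27 ± 0.089, limma adjusted p = 0.11). Mcm7 read 719, 600.0 and 633 in the controls against 592, 588 and 602 in YY1aKO, and its groups overlapped with 6 arrays (log2 change -0.13 ± 0.097, adjusted p = 0.45).

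Cdc45, which joins the MCM ring to make the active helicase, read 109, 68.2 and 86.1 in the controls against 124, 137 and 135 in YY1aKO. All YY1aKO arrays were above all controls, with a log2 change of 0.62 ± 0.18 (limma adjusted p = 0.087) that became 0.45 ± 0.12 without control 2 (adjusted p = 0.046). Cdc6, which loads the MCM ring in G1, read 118, 50.5 and 69.4 in the controls against 41.5, 45.8 and 39.7 in YY1aKO. The YY1aKO arrays were the lowest 3 and lay close together, while control 1 stood well above the other controls. The log2 change was -0.82 ± 0.31 with 6 arrays (adjusted p = 0.15) and -1.10 ± 0.23 without control 2 (adjusted p = 0.020). Leaving out control 1 in addition brought it to -0.72 and kept the call, while leaving out any YY1aKO array in addition to control 2 lost it (adjusted p of up to 0.070).

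The clamp, its loader and the single-strand binding proteins were the group with the most calls. Of 8 genes, 5 rose with 6 arrays (62.5%, against 6.85% of all genes) and 7 without control 2 (87.5%, against 14.7%). All 8 changes were positive in both fits, and the median change was 0.55 and 0.64. Rfc4, a small subunit of replication factor C, read 134, 177 and 142 in the controls against 403, 441 and 439 in YY1aKO. The lowest YY1aKO value was far above the highest control, and the group means differed 2.84-fold (log2 change 1.51 ± 0.13, limma adjusted p = 0.0089). A second Rfc4 probe set changed by 1.58.

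Rfc3, another small subunit, read 83.4, 89.9 and 94.7 in the controls against 178, 169.7 and 157 in YY1aKO. The groups were well apart (log2 change 0.91 ± 0.095, limma adjusted p = 0.010), and its second probe set changed by 0.94. Rfc1, the large subunit, read 448, 399 and 422 in the controls against 620.0, 629.7 and 573 in YY1aKO, an increase of 0.52 ± 0.090 (adjusted p = 0.024). Its other probe sets changed by 0.49 and 0.25.

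The remaining loader subunits passed without control 2 and not with 6 arrays. Rfc5 read 144, 240.1 and 137 in the controls against 250.5, 239 and 222 in YY1aKO. Control 2 lay among the YY1aKO values and far above the other controls, so the groups overlapped with 6 arrays (log2 change 0.50 ± 0.23, limma adjusted p = 0.23) and not without it (0.76 ± 0.089, adjusted p = 0.0045). Rfc2 read 381, 437 and 395 in the controls against 473, 516 and 465 in YY1aKO, with all YY1aKO arrays higher (0.26 ± 0.096, adjusted p = 0.14, and 0.32 ± 0.086, adjusted p = 0.044 without control 2).

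Rpa1, the large subunit of replication protein A, read 1308, 1153 and 1302 in the controls against 1913, 1989.5 and 1737 in YY1aKO. Its groups were apart (log2 change 0.58 ± 0.10, limma adjusted p = 0.024). Rpa2, the middle subunit, read 185, 258 and 154 in the controls against 357, 338 and 397 in YY1aKO. Control 2 was the highest control yet still below every YY1aKO array, and the log2 change was 0.90 ± 0.20 with 6 arrays (adjusted p = 0.046) and 1.11 ± 0.12 without control 2 (adjusted p = 0.0037). The second Rpa2 probe set changed by 0.93.

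Pcna, the sliding clamp that the loader places on DNA, did not pass in either fit. It read 2389, 2479 and 2197 in the controls against 2855, 2889 and 2615 in YY1aKO. The YY1aKO arrays were all above the controls by a small margin (log2 change 0.24 ± 0.092, limma adjusted p = 0.16, and 0.28 ± 0.091, adjusted p = 0.073 without control 2). Its fold difference was 1.18, next to 2.84 for Rfc4.

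The polymerase and strand-joining genes gave 0 limma calls of 6 with 6 arrays (1 higher and 0 lower at an unadjusted p under 0.05). The shares of all genes were 6.85% higher and 3.99% lower. Without control 2 the polymerase and strand-joining genes gave 2 rises (33.3%, against 14.7% of all genes). Pole, the catalytic subunit of the leading-strand polymerase, read 83.3, 56.4 and 67.7 in the controls against 104, 118 and 105 in YY1aKO. All YY1aKO arrays lay above all controls, and the adjusted p by limma was 0.053 with 6 arrays (log2 change 0.67 ± 0.16) and 0.027 without control 2 (0.54 ± 0.12). Fen1, the nuclease that trims Okazaki fragments, read 841, 1078 and 903 in the controls against 1166, 1108 and 1098 in YY1aKO, with 0.26 ± 0.12 (adjusted p = 0.21) and 0.37 ± 0.082 without control 2 (adjusted p = 0.026).

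The others of this group showed no such separation. Pola1, the polymerase that extends primers, had the lowest change and read 133, 170.4 and 117 in the controls against 124, 107 and 115 in YY1aKO (log2 change -0.26 ± 0.16, limma adjusted p = 0.33). The primase Prim1 (-0.081), the delta polymerase Pold1 (0.20) and DNA ligase 1, Lig1 (-0.18), had overlapping groups with 6 arrays. Control 2 was the highest of the 6 arrays for Pola1, Prim1 and Lig1, and without it the changes of Prim1 and Lig1 were 0.076 and 0.057.

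The nucleotide supply genes gave 0 limma calls of 3 in both fits (0 higher and 0 lower at an unadjusted p under 0.05), and their groups overlapped. Among all genes 6.85% rose and 3.99% fell with 6 arrays, and 14.7% and 11.5% without control 2. Rrm2, the ribonucleotide reductase subunit whose level follows S phase, read 157, 123 and 79.9 in the controls against 138, 102 and 75.5 in YY1aKO. Values varied over a similar range in both groups (log2 change -0.18 ± 0.32, limma adjusted p = 0.76). Rrm1, the partner subunit, read 332, 390.3 and 296 in the controls against 319.6, 335 and 325 in YY1aKO (-0.045 ± 0.12, adjusted p = 0.85). Tyms, thymidylate synthase, read 14.2, 14.1 and 15.7 in the controls against 16.6, 16.6 and 14.9 in YY1aKO, close to the low end of the scale (log2 change 0.12 ± 0.095).

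Of the chromatin assembly genes, 1 of 3 measured rose in each fit (33.3%). Of all genes, 6.85% rose with 6 arrays and 14.7% without control 2. Asf1b, a histone H3-H4 chaperone expressed mainly in dividing cells, read 118, 120.1 and 125 in the controls against 381, 499.7 and 435 in YY1aKO. The 3 controls were close together, every YY1aKO array was far above them, and the 3.60-fold difference (log2 change 1.85 ± 0.12, limma adjusted p = 0.0046) was the largest of the 53 genes. Its paralog Asf1a read 855, 937 and 729 in the controls against 929.8, 898 and 943 in YY1aKO, with overlapping groups (0.14 ± 0.12, adjusted p = 0.47). Chaf1b, a subunit of chromatin assembly factor 1, read 28.4, 51.8 and 33.0 in the controls against 28.1, 28.7 and 29.3 in YY1aKO (-0.35 ± 0.23, adjusted p = 0.38), and control 2 was again the highest array.

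**Figure D2:**
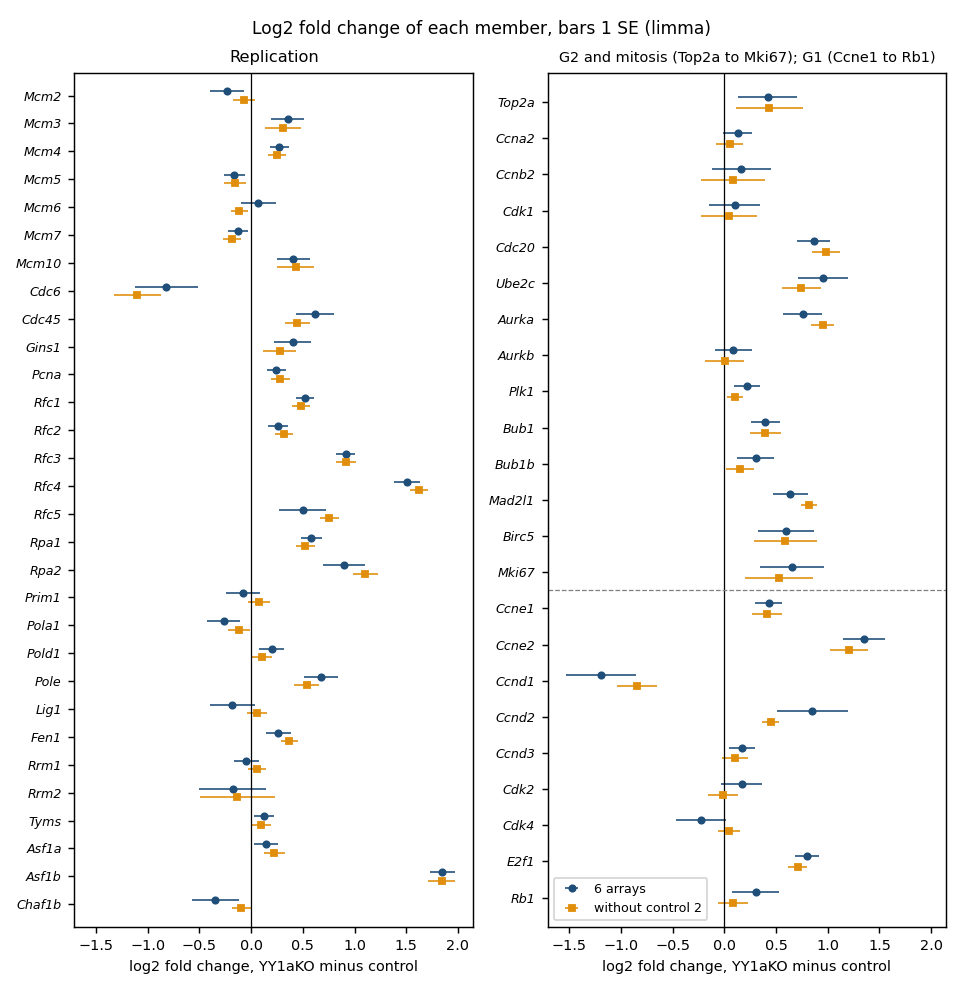
Log2 change (YY1aKO minus control) with its standard error for the 53 genes, grouped by role, from the fit with 6 arrays and the fit without control 2. The clamp loader and single-strand binding genes all lie above 0, and Asf1b and Rfc4 lie farthest to the right.

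The mitosis genes were all positive. Of 14 measured, 1 rose with 6 arrays (7.14%, against 6.85% of all genes) and 4 without control 2 (28.6%, against 14.7%), 0 fell in either fit (5 were higher and 0 lower at an unadjusted limma p under 0.05 with 6 arrays), and all 14 changes were above 0 in both. The median was 0.41 with 6 arrays and 0.42 without control 2. Of the 14, 9 lay below the intensity of 114 that marks the brightest 60% of genes, and their median control SD on the log2 scale was 0.35, against 0.24 for the replication genes and 0.21 for all genes.

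Cdc20, which activates the anaphase-promoting complex, read 122, 139.6 and 98.1 in the controls against 239, 217 and 194 in YY1aKO. All YY1aKO arrays lay above all controls (log2 change 0.87 ± 0.16, limma adjusted p = 0.028), although of its 3 probe sets 1 changed by only 0.10. With 6 arrays its call was lost when probe sets ending in _s_at or _x_at were left out. Ube2c, the ubiquitin-conjugating enzyme that works with that complex, read 137, 76.1 and 100.1 in the controls against 214, 217 and 162 in YY1aKO. Its groups were apart, with an adjusted p of 0.062 for 6 arrays (0.95 ± 0.24) and 0.037 without control 2 (0.75 ± 0.19).

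Aurka, the kinase of the spindle poles, read 48.0, 64.3 and 38.8 in the controls against 84.0, 85.8 and 80.2 in YY1aKO. The YY1aKO arrays lay close together and all exceeded the controls (0.76 ± 0.19, limma adjusted p = 0.060, and 0.95 ± 0.11, adjusted p = 0.0046 without control 2). Mad2l1, which holds back anaphase until chromosomes are attached, read 202, 291 and 195 in the controls against 344, 359 and 349 in YY1aKO. The pattern was the same, with control 2 the highest control (0.64 ± 0.17, adjusted p = 0.069, and 0.82 ± 0.077, adjusted p = 0.0028 without control 2).

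The usual proliferation markers were not called in either fit. Mki67, the nuclear antigen Ki-67 that marks cycling cells, read 156, 83.5 and 75.0 in the controls against 183, 166 and 125 in YY1aKO. Control 1 lay inside the YY1aKO range and the other controls below it, so the groups overlapped (0.65 ± 0.31, limma adjusted p = 0.24). With 1 array left out of 6 the change ran from 0.45 (without control 3) to 0.98, and it passed without control 1 (adjusted p = 0.041). With controls 2 and 3 both left out it was 0.00014. Top2a, the topoisomerase that untangles chromosomes, read 152, 109.6 and 73.4 in the controls against 161, 154 and 117 in YY1aKO, again with control 1 among the YY1aKO values (0.42 ± 0.29, adjusted p = 0.40).

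Cdk1, the kinase that drives entry into mitosis, read 124, 83.3 and 69.9 in the controls against 115, 96.3 and 80.2 in YY1aKO. The highest value of all was that of control 1, and the change was 0.099 ± 0.25 (limma adjusted p = 0.84). Its cyclin partners Ccnb2 and Ccna2 changed by 0.16 and 0.13, and the kinase Aurkb by 0.088, all with overlapping groups. Survivin, Birc5, changed by 0.59 ± 0.27 (adjusted p = 0.22), also with overlap. Bub1 (0.40) and Plk1 (0.22) had YY1aKO arrays above all controls and did not pass, and Bub1b (0.30) overlapped.

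The mitosis genes varied together across the controls. Control 1 was the highest control for 11 of the 14 and control 3 the lowest for 10, and YY1aKO 3 was the highest of its group for 0. Over all 12393 genes these counts were 4680, 2896 and 4003. The B cell markers (3 measured, 0 called by limma and 0 at an unadjusted p under 0.05) were also highest in control 1 among the controls, with a summed level of 352, but their lowest control was control 2 (115) and not control 3 (253). In YY1aKO 1 to 3 the B cell sums were 395, 202 and 180. That is the order of the median level of the mitosis genes on these arrays (0.37, 0.32 and 0.037). T cell, neutrophil and endothelial sums had the same control order as the B cell sums, with control 1 highest and control 2 lowest, but not the same YY1aKO order. The part of these cells in the mitosis values was not tested.

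**Figure D3:**
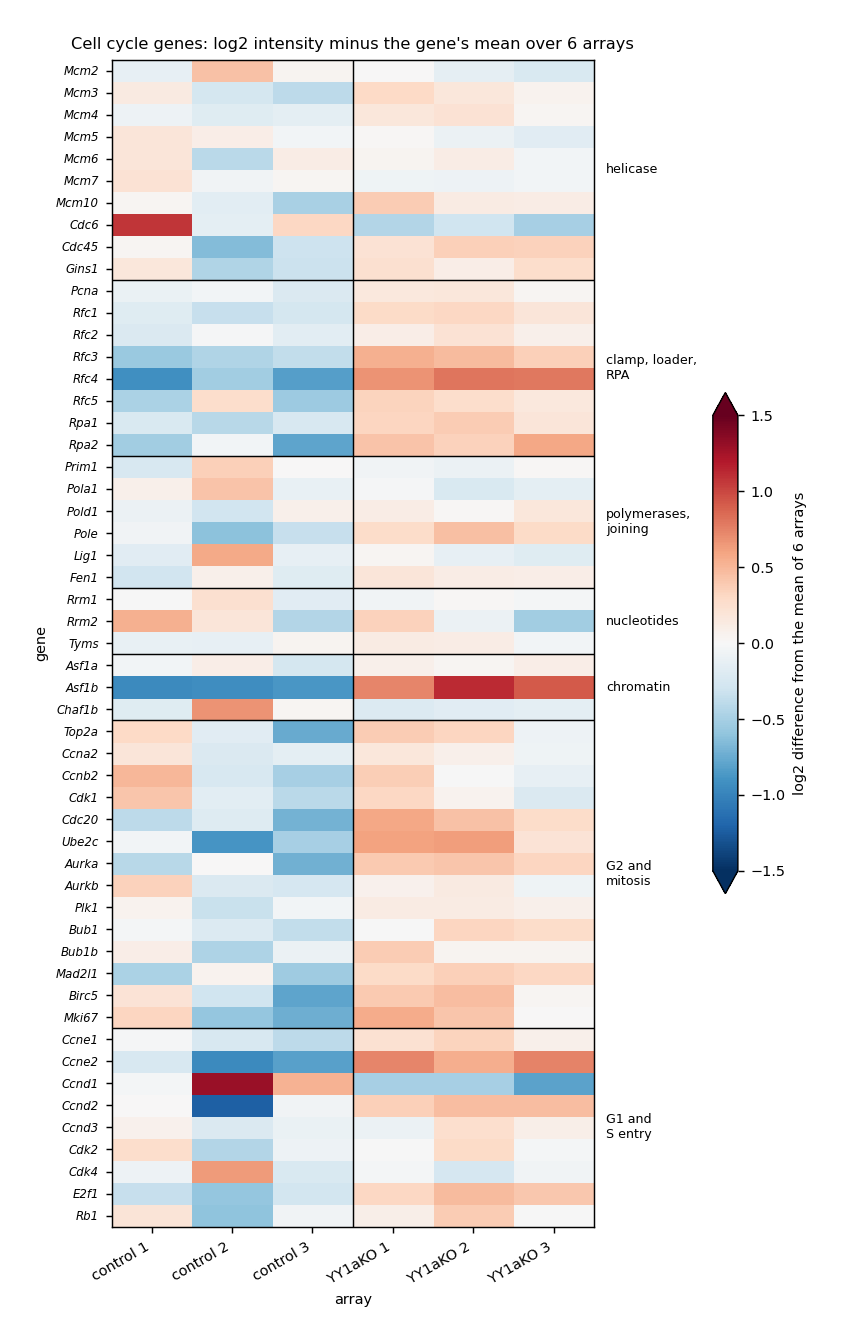
Heat map of the 53 genes on the 6 arrays, coloured by the log2 difference from each gene's mean over the 6 arrays, with genes grouped by role and with the colour scale shown by its bar. Control 1 is the highest control in 11 of 14 mitosis rows, while Asf1b and Rfc4 divide cleanly between the groups.

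The G1 genes split. Of 9, 2 rose with 6 arrays (22.2%, against 6.85% of all genes). Without control 2 there were 3 rises (33.3%, against 14.7% of all genes) and 1 fall (11.1%, against 11.5%). The median change was 0.30 with 6 arrays and 0.10 without control 2. Ccne2, a cyclin that activates Cdk2 at the start of S phase, read 106, 64.3 and 70.9 in the controls against 208, 182 and 209 in YY1aKO. The lowest YY1aKO value was far above the highest control (log2 change 1.35 ± 0.20, limma adjusted p = 0.018). Its paralog Ccne1 read 103, 87.7 and 79.2 in the controls against 122, 131 and 109 in YY1aKO, also without overlap, and did not pass (0.43 ± 0.13, adjusted p = 0.0998).

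E2f1, an activating E2F and itself an E2F target, read 125, 106 and 132 in the controls against 197, 222 and 210.5 in YY1aKO. The groups were well apart (0.80 ± 0.11, limma adjusted p = 0.016), and its second probe set changed by 1.01. Rb1, the retinoblastoma protein that restrains E2F factors, read 1278, 739.9 and 1083 in the controls against 1188, 1454 and 1115 in YY1aKO. Control 2 was far below the rest, and the groups overlapped (0.30 ± 0.23, adjusted p = 0.44, and 0.081 without control 2).

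The D-type cyclins, which link growth signals to Cdk4, went in different directions. Ccnd1 read 485, 1218 and 713 in the controls against 351, 351 and 284 in YY1aKO. Every YY1aKO array lay below every control, with -1.20 ± 0.34 for 6 arrays (limma adjusted p = 0.080) and -0.85 ± 0.19 without control 2 (adjusted p = 0.027). Its 3 probe sets changed by -1.40, -1.34 and -1.20. The order of Ccnd1 in the controls, 2 above 3 above 1, was that of the summed epididymal markers, which were 143 in control 1. Their part in the Ccnd1 values was not tested. With control 2 and 1 further array left out, the change ran from -1.13 to -0.57 and the adjusted p from 0.0078 to 0.079, and the call was lost without control 3 or any YY1aKO array.

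Ccnd2 read 4438, 1880.2 and 4240.0 in the controls against 5631, 6099.5 and 6059.9 in YY1aKO. Control 2 was far below the other controls, and all YY1aKO arrays were the highest (0.85 ± 0.34, limma adjusted p = 0.17, and 0.45 ± 0.083, adjusted p = 0.015 without control 2). Its 7 probe sets changed by 0.33 to 1.13. Ccnd3 changed by 0.17, Cdk2 by 0.17 and Cdk4 by -0.22, with overlapping groups. Control 2 was the highest array for Cdk4 (671), and without it the change was 0.045.

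The comparison of replication with mitosis genes gave no clear difference between the sets. The median change of the replication genes was 0.25 with 6 arrays and 0.26 without control 2, which is 0.16 and 0.15 below that of the mitosis genes. On single arrays, the replication median relative to each gene's mean over 6 arrays was -0.091, -0.084 and -0.20 for controls 1 to 3, against 0.16, 0.11 and 0.066 for YY1aKO 1 to 3. The replication medians of the groups did not overlap. Nor did the medians of all genes, over a narrower range: -0.020, -0.074 and -0.0019 in the controls against 0.018, 0.019 and 0.0092 in YY1aKO. The G1 medians were also apart, with -0.012, -0.44 and -0.10 in the controls against 0.086, 0.34 and 0.073 in YY1aKO. For the mitosis genes the values were 0.14, -0.22 and -0.50 in the controls and 0.37, 0.32 and 0.037 in YY1aKO, so control 1 lay above YY1aKO 3.

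The difference between the sets within an array, replication minus mitosis, was -0.23, 0.13 and 0.29 in the controls and -0.21, -0.21 and 0.028 in YY1aKO. These ranges overlap, and a control gave the lowest value. Without control 3 the difference of the medians was -0.083, and its sign turned, to 0.12, when controls 2 and 3 were both left out, which leaves 1 control. The sets also differ in brightness, with a median intensity of 181 for the replication genes and 86.6 for the mitosis genes, which depends on the probes as well as on the transcripts. Among the brightest 60% of genes, 20 replication and 5 mitosis genes remained, and the difference was -0.39.

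**Figure D4:**
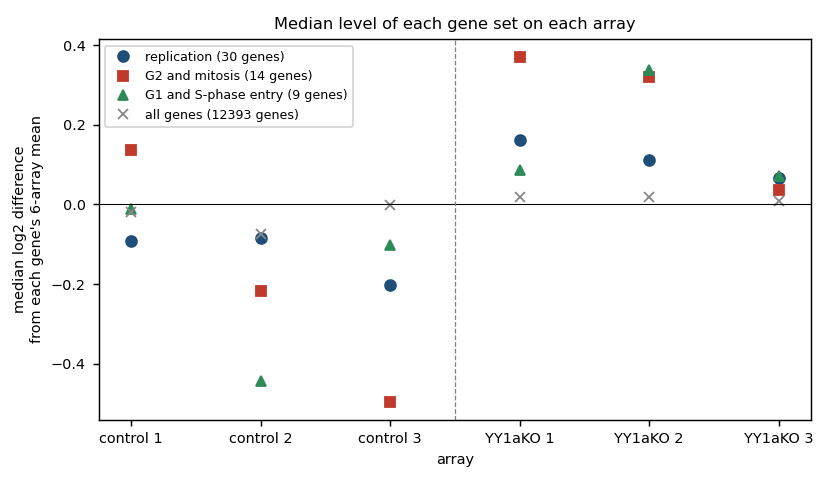
Median over the genes of each set (30 replication, 14 mitosis, 9 G1) of the log2 difference from each gene's mean over 6 arrays, with 1 point per array. The replication medians of controls (-0.20 to -0.084) and YY1aKO (0.066 to 0.16) do not overlap, while the mitosis median of control 1 (0.14) lies above that of YY1aKO 3 (0.037). The G1 medians and those of all genes, also shown, do not overlap between the groups either.

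Other genes of the pathway were counted from further lists. Of 38 further replication genes, 31 were measured, with a median change of 0.32 with 6 arrays. In that fit 9 rose (29.0%, against 6.85% of all genes) and 3 fell (9.68%, against 3.99%). Without control 2, 14 rose (45.2%, against 14.7% of all genes) and 4 fell (12.9%, against 11.5%). Gins4, a subunit of the GINS complex, rose by 1.10 ± 0.15 (limma adjusted p = 0.015), and Pold2, an accessory subunit of the delta polymerase, by 0.84 ± 0.15 (adjusted p = 0.024). Cdc7, the kinase that fires loaded helicases, changed by 1.09 (adjusted p = 0.0504) and passed without control 2 (0.82, adjusted p = 0.011). Prim2, the large primase subunit, rose by 0.81, whereas its partner Prim1 among the 53 did not pass. Among the falls were Pole4 (-0.74), the topoisomerase Top1 (-0.62) and the MCM-binding protein Mcmbp (-0.51).

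Of 49 further mitosis genes, 46 were measured, with a median change of 0.20 with 6 arrays. In that fit 8 rose (17.4%, against 6.85% of all genes) and 1 fell (2.17%, against 3.99%). Without control 2, 11 rose (23.9%, against 14.7% of all genes) and 3 fell (6.52%, against 11.5%). The largest rises were Spc25, of the kinetochore NDC80 complex (1.49 ± 0.21, limma adjusted p = 0.015), Cks1b, a subunit that binds cyclin-dependent kinases (1.46), and the condensin subunit Smc2 (1.13). Smc4, the partner of Smc2 in condensin, fell (-0.57 ± 0.11, adjusted p = 0.033). Of 14 measured E2F, RB and DREAM factors (19 listed), 0 passed limma with 6 arrays (1 was higher and 4 lower at an unadjusted p under 0.05). The shares of all genes in that fit were 6.85% higher and 3.99% lower. Without control 2 Tfdp1, an E2F partner, rose (0.31) while Lin9 (-0.44) and Rbbp4 (-0.30) fell. That is 7.14% higher and 14.3% lower, against 14.7% and 11.5% of all genes.

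Inhibitors of the cycle moved in both directions. Of 8 cyclin-dependent kinase inhibitors, 7 were measured. With 6 arrays 3 rose (42.9%, against 6.85% of all genes) and 1 fell (14.3%, against 3.99%). Without control 2, 3 rose (42.9%, against 14.7% of all genes) and 2 fell (28.6%, against 11.5%). Cdkn2b, the p15 inhibitor of Cdk4 and Cdk6, read 232, 204 and 317 in the controls against 738, 709 and 804 in YY1aKO, with a change of 1.60 ± 0.18 (limma adjusted p = 0.010). Cdkn1a, the p21 inhibitor, changed by 1.69, and Cdkn2a, whose locus makes p16 and p19ARF, by 0.62 (limma adjusted p = 0.035). Cdkn2a was dim, with 16.3, 13.2 and 15.8 in the controls against 20.8, 24.8 and 24.0 in YY1aKO, close to the low end of the scale. Cdkn1b, the p27 inhibitor, read 641, 643 and 659 in the controls against 402, 341 and 404 in YY1aKO and fell (-0.76 ± 0.099, adjusted p = 0.014). Cdkn1c fell without control 2 (-1.13, adjusted p = 0.011).

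Of 19 checkpoint and cyclin turnover genes, 18 were measured and 1 rose with 6 arrays (5.56%, against 6.85% of all genes). It was the damage-sensing kinase Atr (0.76 ± 0.13, limma adjusted p = 0.024). Without control 2, Fbxw7, which marks cyclin E for destruction, rose as well (0.51), and Wee1, which restrains Cdk1, fell (-0.46). The rises were then 11.1% of the list, against 14.7% of all genes, and the fall 5.56%, against 11.5%.

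Markers of other cells that could supply these transcripts gave 0 limma calls with 6 arrays for macrophages (9 measured), T cells (5), endothelium (6), neutrophils (3), mesothelium (4) and progenitors and fibroblasts (7), and 1 gene, lower and in the progenitor list, had an unadjusted p under 0.05. Over all genes, 6.85% rose and 3.99% fell in that fit. Control 2 was low in these lists, and the fit without it, in which 11.5% of all genes fell, gave some calls. Cd163 of macrophages (-0.30 ± 0.084, limma adjusted p = 0.047), Tek of endothelium (-0.50 ± 0.13, adjusted p = 0.039), S100a8 of neutrophils (-0.75 ± 0.18, adjusted p = 0.031) and Wt1 of mesothelium (-0.58 ± 0.13, adjusted p = 0.025) fell, and 0 T cell and 0 progenitor markers were called. All 6 endothelial and all 7 progenitor changes were then negative, with 3 and 4 of them at an unadjusted p under 0.05. Of all 12393 genes, 5959 changes were negative in that fit, and 2231 genes were lower at that cut.

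Summed macrophage markers were 16762 and 17288 in controls 1 and 3, against 9096 in control 2 and 14123 to 16661 in YY1aKO. Endothelial sums were 3076 and 2583 in controls 1 and 3, against 1023 in control 2 and 1889 to 2336 in YY1aKO, and progenitor sums were 32580.1 and 34173, against 22134 and 24050.2 to 29689. In each of these 3 lists YY1aKO lay below controls 1 and 3 and above control 2. For macrophages the margin was small, with 16661 in YY1aKO 1 against 16762 in control 1. Without control 2, 7 of the 9 macrophage changes were negative, and Adgre1 (0.16) and Mrc1 (0.066) were positive. For Adgre1 every YY1aKO array lay above every control. T cell sums were 254 to 308 in the control group and 286 to 329 in YY1aKO, so they overlapped. The brightest genes weigh most in such sums. In control 1, Dcn and Col3a1 of the progenitor list read 15343 and 11201, and Lyz2 and Csf1r of the macrophage list 6494 and 3870. The part of these cells in the results was not tested.

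Summed skeletal muscle markers were 517 to 1409 in the control group, against 2914 to 3661 after deletion, and 2 of the 5 genes carried the difference. Acta1, skeletal actin, rose (3.43 ± 0.30, limma adjusted p = 0.0089), and Myl1 changed by 1.08 ± 0.51 (adjusted p = 0.24) and rose without control 2 (0.47 ± 0.13, adjusted p = 0.046). Ckm (0.099) and Tnnt3 (-0.026) had overlapping groups, and Myh4 read at most 15.3. The part of muscle RNA in the results above was not tested.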

How the data were processed

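Each of 6 white fat RNA samples, 3 per group, had its own 1-colour Affymetrix array. The deposited table gives an intensity for every probe set on every array. The submitters' processing notes name RMA, without a version or settings. RMA makes the arrays' distributions alike, so a change shared by most genes is removed. The deposited intensities run from 6.09 to 30322, a linear scale, although RMA usually gives log2 values, and the step back from log2 is not described. Tests were run on log2 of the intensities. Very bright probe sets can be compressed.

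Of 22690 probe sets, 64 array controls were left out, 20380 had a single gene symbol, 691 had several and 1555 had none in the platform annotation. Entrez IDs tied 20351 of the single-symbol probe sets to the current gene table, and 0 symbols changed. Each of 12393 genes was read from its brightest probe set, without a filter. Of the 53 members measured, 27 have several probe sets.

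limma 3.58.1 in R 4.3.3 (lmFit, eBayes, two-sided, Benjamini-Hochberg over 12393 genes, threshold 0.05) compared YY1aKO with control, with 6 arrays and without control 2, without a replicate block. It was tested on simulated data. The members and all lists were chosen with earlier results of these data known. Every member could be named. Values on every array were to be given for members past the threshold in either fit, for the largest rise and fall of a role group with no call, and for key genes, and up to 4 called genes were named per further list. The genes that fell in the further replication and mitosis lists, and Cdkn2a, were named after their values were seen. Alternatives were other probe set rules, a brightness filter, quantile or median scaling, a trended and robust prior, array weights, the replicate number as a block and each array left out.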

Additional observations from a re-analysis of the deposited data

How the results depend on the processing

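With 6 arrays, the mean of all probe sets, leaving out probe sets ending in _s_at or _x_at, the brightest 60% of genes, either rescaling and the trended robust prior all kept the count of members that rose within 1.5 times of 9. Array weights, whose estimation stopped before it converged, gave 29 higher and 2 lower members, 2638 higher and 2255 lower genes, a mitosis median of 0.67 and a replication minus mitosis difference of -0.37. Among the brightest 60% of genes that difference was -0.39, and without control 2 it was -0.45, with a mitosis median of 0.75 and 1 lower member.

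Leaving out each array of 6 in turn gave 1 to 18 higher and 0 to 2 lower members, 10 to 1817 higher and 15 to 1422 lower genes, and a G1 median of 0.10 to 0.48. With control 2 and 1 further array left out, the ranges were 11 to 23 higher and 0 to 2 lower members, 969 to 1517 higher and 761 to 1501 lower genes, a replication median of 0.18 to 0.33, a mitosis median of 0.055 to 0.71 and a difference of -0.39 to 0.12. Where this leaves 1 control, that array is assumed to vary like the YY1aKO arrays.

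Deviations of same-numbered arrays from their group means correlated at -0.12, -0.084 and -0.096 over all genes, which gives no sign of pairing by replicate number. These deviations include the strong epididymal signal of control 2, so the correlations do not settle whether samples were paired. A replicate block gave 0 higher members, and 5 higher and 7 lower genes in all.

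Signs turned only in members that were not called with 6 arrays. With array weights the log2 changes were -0.071 for Mcm6, 0.025 for Lig1, 0.11 for Rrm1, 0.23 for Rrm2 and 0.072 for Cdk4. Rrm1 was 0.088 with the mean of its probe sets and 0.0028 with equal array medians, and Rrm2 was 0.044 without _s_at and _x_at probe sets. With 1 array left out of 6, the ranges were -0.11 to 0.18 for Mcm6, -0.22 to 0.076 for Prim1, -0.31 to 0.057 for Lig1, -0.14 to 0.061 for Rrm1, -0.44 to 0.043 for Rrm2, -0.045 to 0.45 for Ccnb2, -0.081 to 0.33 for Cdk1, -0.018 to 0.28 for Aurkb, -0.012 to 0.34 for Cdk2 and -0.39 to 0.045 for Cdk4. The causes were not tested. Of the members, 20 of 53, among them 9 of 14 mitosis genes, lie below the intensity of 114.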
